A study of Homo sapiens and Mus musculus with 33 samples.

Results

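The genes examined here encode the proteins that write, copy and remove methyl groups on cytosine: DNMT1, DNMT3A, DNMT3B, UHRF1, TET1, TET2 and TET3. They were chosen by name, and all 7 were found among the 35805 genes of the human RNA table and, in title case, among the 25965 genes of the mouse RNA table. Every ChIP-seq peak in or within 2 kb of their gene intervals was then taken, which gave 17 of 40266 peaks in HCT116 cells, 17 of 30338 H3K18cr peaks in mouse colon and 24 of 27035 H3K4me3 peaks in mouse colon. The marks mapped were crotonylation of histone H3 at lysine 18 (H3K18cr), an acyl mark with a short crotonyl chain, and acetylation of the same residue (H3K18ac). The human cells were HCT116, an established line from a colon carcinoma of epithelial origin, and received 5 µM MS275 (entinostat), an inhibitor of class I histone deacetylases, or an equal amount of DMSO for 18 h. RNA was sequenced from 4 libraries per treatment, and each mark was immunoprecipitated in 3 libraries per treatment. Both marks shared 1 input library per treatment. Untreated colon epithelium of C57BL/6 mice gave 3 RNA libraries, 2 H3K18cr libraries with 2 inputs, and 3 H3K4me3 libraries with 1 input. H3K4me3 is trimethylation of histone H3 at lysine 4, a mark of gene starts. The labels give no age for the mice, and colons were pooled for ChIP. HCT116 is 1 cell line, and the labels do not say how its replicates were separated.

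DNMT1 copies methylation onto the new strand after DNA replication, and UHRF1 brings it to hemimethylated CpG sites. DNMT3A and DNMT3B methylate sites that carried no mark before, while TET1, TET2 and TET3 oxidise 5-methylcytosine, the first step of its removal. In the intestine DNMT1 and UHRF1 are known from the dividing cells of the crypt, and mutations of this family are known from blood cancers.

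Total counts were 35608533 to 53415604 per HCT116 RNA library and 8166406 to 10707901 per colon RNA library. The HCT116 ChIP libraries held 2236551 to 5730094 reads in peaks. Among HCT116 RNA libraries, DMSO replicate 3 stood apart, with a median correlation of log2 CPM (counts relative to library size) of 0.903 with the other libraries against 0.931 to 0.959 for the other 7. The label of the colon samples was checked with marker genes. All 8 epithelial markers were above 10 CPM and summed to 9649 to 10753 CPM, against 28.9 to 43.2 CPM for the 7 immune and 26.6 to 31.5 CPM for the 7 stromal and vascular markers, of which Ptprc (18.8 CPM) and Vim (14.3 CPM) were highest. No marker of either list was at 0, and the part of such cells in the members' levels was not tested. In control HCT116 cells 5 of 8 epithelial markers were above 10 CPM, led by KRT8, and LGALS4 was at 0. CDKN1A, a cell cycle inhibitor used here as a check of the treatment, had a higher CPM in the MS275 library of all 4 same-numbered pairs (log2 change 0.28 ± 0.07 SE, edgeR adjusted p = 0.0167 with the replicate number as a block and 0.870 without it).

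Promoter sequences from peaks that were called for the histone marks, and from peaks that were not, are shown first. RefSeq promoters (GRCh38.p14, 250 bases before to 50 after the start) were available for all 7 human genes, 18 in all. Of these 5 are given. The DNMT1 and UHRF1 starts lie in peaks where both marks were called lower after MS275, with all libraries and the authors' scaling. On the same terms the DNMT3A start shown lies in a peak where neither mark was called. TET1 has starts in a peak of either kind, of which 1 each is shown. All 18 promoters were searched on both strands for 4 sites of the E2F type, the motif of factors that act at the entry to S phase: TTTCCCGC, TTTCGCGC, TTTGCCGC and TTTGGCGC. Capitals mark a match, which for a site on the other strand reads as its reverse complement.
DNMT1, chr19:10194904-10195203, minus strand: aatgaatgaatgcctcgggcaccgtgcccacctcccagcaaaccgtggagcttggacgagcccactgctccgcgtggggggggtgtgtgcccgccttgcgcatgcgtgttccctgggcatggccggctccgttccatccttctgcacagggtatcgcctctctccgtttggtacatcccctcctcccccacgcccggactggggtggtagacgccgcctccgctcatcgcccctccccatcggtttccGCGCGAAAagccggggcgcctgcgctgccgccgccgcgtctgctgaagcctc
UHRF1, chr19:4909251-4909550, plus strand: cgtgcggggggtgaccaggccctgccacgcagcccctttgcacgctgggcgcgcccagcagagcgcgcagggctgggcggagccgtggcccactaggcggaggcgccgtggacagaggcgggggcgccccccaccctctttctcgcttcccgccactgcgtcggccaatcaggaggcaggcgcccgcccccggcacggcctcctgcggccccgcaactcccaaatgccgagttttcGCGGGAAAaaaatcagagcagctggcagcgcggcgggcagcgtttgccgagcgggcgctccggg
DNMT3A, chr2:25342434-25342733, minus strand: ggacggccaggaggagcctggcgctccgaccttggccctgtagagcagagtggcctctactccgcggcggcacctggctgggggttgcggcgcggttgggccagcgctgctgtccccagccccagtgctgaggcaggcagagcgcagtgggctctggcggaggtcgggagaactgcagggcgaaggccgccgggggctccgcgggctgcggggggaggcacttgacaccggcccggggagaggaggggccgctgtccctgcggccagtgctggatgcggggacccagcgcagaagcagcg
TET1, upstream start, chr10:68560087-68560386, plus strand: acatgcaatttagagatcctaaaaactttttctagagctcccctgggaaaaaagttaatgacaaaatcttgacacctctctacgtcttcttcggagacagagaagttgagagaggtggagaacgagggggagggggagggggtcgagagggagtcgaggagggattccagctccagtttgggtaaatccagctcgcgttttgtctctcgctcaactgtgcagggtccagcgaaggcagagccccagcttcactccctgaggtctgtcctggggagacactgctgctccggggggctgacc
TET1, start inside the gene, chr10:68600224-68600523, plus strand: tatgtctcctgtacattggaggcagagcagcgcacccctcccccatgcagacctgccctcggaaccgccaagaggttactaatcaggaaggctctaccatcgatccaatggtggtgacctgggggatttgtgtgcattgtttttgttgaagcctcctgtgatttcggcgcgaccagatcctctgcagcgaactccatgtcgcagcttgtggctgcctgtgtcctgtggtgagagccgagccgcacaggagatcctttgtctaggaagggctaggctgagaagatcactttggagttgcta
The DNMT1 match, GCGCGAAA, began 2 bases before the start site, and the UHRF1 match, GCGGGAAA, began 14 bases before it. A later UHRF1 promoter (chr19:4909894-4910193) held TTTCGCGC, and the other 15 promoters of the group held none of the 4. Of all 35116 promoters in the table, 3.31% held at least 1 of these sites, 1.63% TTTCCCGC and 0.515% TTTCGCGC. The promoters also differed in CpG dinucleotides, the sites that these enzymes act on. The windows shown held 30 CpGs at DNMT1, 36 at UHRF1 and 26 at DNMT3A, but 10 at the upstream and 11 at the inner TET1 start, against a median of 14 over all promoters. The DNMT3A peak holds 3 RefSeq starts, and its windows not shown held 46 and 18 CpGs.

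UHRF1 and DNMT1, the maintenance pair, had the highest RNA levels of the group in both control HCT116 cells and mouse colon. Levels are CPM on the library total, per kb of merged exon length, so that genes of different length can be set side by side. In control HCT116 cells UHRF1 stood at 38.7 ± 11.2 CPM per kb (SD, n = 4) and DNMT1 at 20.6 ± 4.73, and the 4 UHRF1 libraries (29.7 to 54.6) lay above the 4 DNMT1 libraries (16.5 to 27.3). Among the 14719 protein-coding genes with a count and a length, UHRF1 was higher than 93.0% and DNMT1 higher than 86.0%. The other 5 were all below 4 CPM per kb. DNMT3B followed at 2.91 ± 0.558 and TET3 at 2.41 ± 0.647, and their libraries overlapped. DNMT3A stood at 1.01 ± 0.286 and TET2 at 0.823 ± 0.269, again with overlapping libraries. TET1 was the lowest at 0.345 ± 0.296, with a count of 0 in DMSO replicate 3 and of 105 to 244 in the other control libraries, and it stayed at the last rank without DMSO replicate 3. Of the 21 pairs of genes, 17 had libraries that did not overlap.

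In mouse colon Uhrf1 stood at 22.7 ± 2.66 CPM per kb (SD, n = 3) and Dnmt1 at 15.8 ± 0.413. Tet3 came next at 6.51 ± 0.536, followed by Dnmt3a at 4.11 ± 0.478 and Tet2 at 1.79 ± 0.261. Dnmt3b was at 0.858 ± 0.0807 and Tet1 at 0.216 ± 0.0496, on counts of only 34 to 52 and 24 to 39. No library of one gene overlapped with those of another in any of the 21 pairs, so each neighbour in this order was separated by more than the spread between libraries. The order differed from that in HCT116 mainly in DNMT3B, at rank 3 in the cell line and rank 6 in colon. Among 13802 coding genes with a count, Dnmt3b was higher than 27.2%, while DNMT3B was higher than 49.2% in HCT116. The tables differ in species, annotation and depth, so no test was made between them. In colon, which mixes cells of the crypt and the surface, fewer cells that express a gene and less RNA per cell cannot be told apart.

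**Figure D1:**
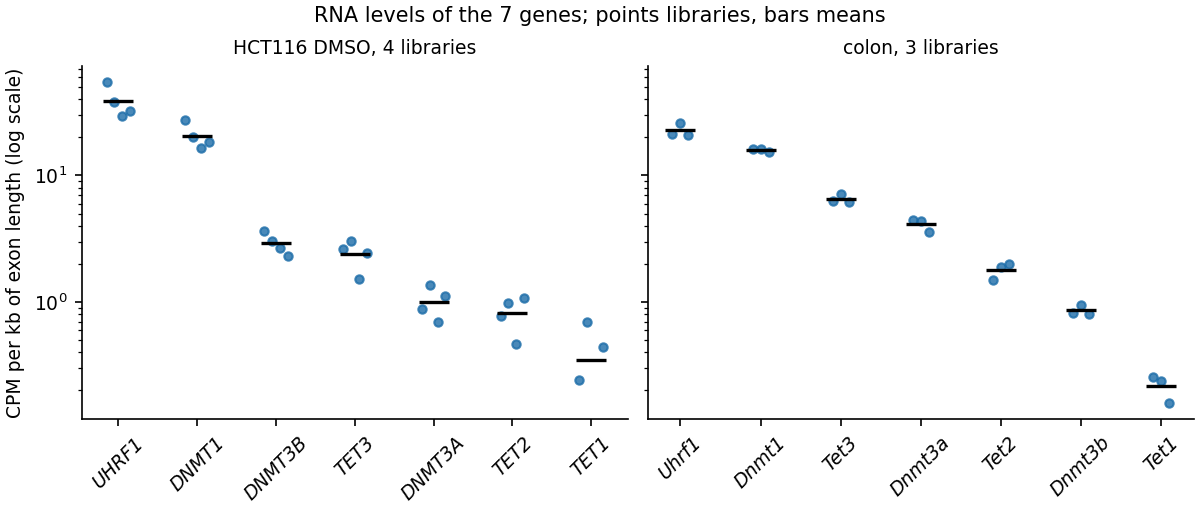
RNA levels of the 7 genes in 4 control HCT116 libraries and 3 mouse colon libraries, in CPM per kb of exon length on a log axis. Points are libraries and bars are means. UHRF1 and DNMT1 lead in both panels, and TET1 in DMSO replicate 3, at 0, cannot be drawn on a log axis.

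None of the 7 genes was called between MS275 and DMSO in HCT116 RNA by edgeR's quasi-likelihood test without a block (Benjamini-Hochberg adjusted p of 0.808 to 0.987). Over all 14961 genes tested this fit called 1 gene, or 0.00668%, with 987 at an unadjusted p under 0.05. The libraries of the same number varied together, least so in replicate 2. With that number as a block, 2151 genes (14.4%) were called, 1171 higher (7.83%) and 980 lower (6.55%), but again none of the 7. The member nearest to the threshold was TET3, followed by UHRF1 and DNMT1. The values below are CPM scaled with TMM factors, edgeR's correction for composition.

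TET3, an enzyme that oxidises methylcytosine, was at 34.5, 37.8, 21.7 and 30.7 CPM in DMSO replicates 1 to 4, and at 27.8, 17.2, 16.4 and 27.8 CPM in the MS275 replicates. The groups overlapped, but the MS275 library was the lower one in all 4 pairs, as for 18.6% of all genes tested. The log2 change was -0.48 ± 0.15 (SE, with the block), with an edgeR adjusted p of 0.0520. UHRF1 was at 284, 187, 169 and 161 CPM in DMSO and at 261, 111, 157 and 148 CPM in MS275, also lower in all 4 pairs. Its log2 change was -0.27 ± 0.10 with the block and its edgeR adjusted p 0.0918. For both genes replicate 2 had the largest log2 ratio, -1.13 for TET3 against -0.14 to -0.40 in the other 3 pairs, and -0.76 for UHRF1 against -0.11 to -0.12. Without replicate 2 the blocked log2 change was -0.29 for TET3 and -0.12 for UHRF1. For these 2 genes the call changed with the tool, the scaling and the pairs used. DESeq2 with the block called both, TET3 at an adjusted p of 0.0316 and UHRF1 at 0.0315, beside 19.5% of all genes. edgeR with the block and DESeq2's size factors, an alternative chosen after seeing the data, called TET3 (edgeR adjusted p = 0.0469) but not UHRF1 (0.0792). It called 14.7% of all genes. edgeR with the block but without replicate 3 called both as well, TET3 at 0.0464 and UHRF1 at 0.0473, beside 17.2% of all genes. Without replicate 1, 2 or 4 the same fit called neither, with edgeR adjusted p of 0.109, 0.203 and 0.0513 for TET3 and of 0.138, 0.332 and 0.110 for UHRF1. These fits called 6.43%, 6.54% and 6.87% of all genes. The log2 change was larger in size without replicate 1 (-0.54 for TET3 and -0.31 for UHRF1) and without replicate 4 (-0.60 and -0.32) than in the full fit, so that it shrank in the fit without replicate 2 alone.

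DNMT1 differed in sign from its partner. It was at 424, 295, 280 and 274.7 CPM in DMSO and at 452, 318, 306 and 300 CPM in MS275, higher in all 4 pairs, as for 18.3% of genes tested. The difference was small (log2 change 0.12 ± 0.06, edgeR adjusted p = 0.166 with the block), and replicate 1 was the highest library of both groups. The difference between the DNMT1 and UHRF1 changes was not tested.

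The other 4 genes showed no common direction over the pairs. DNMT3A was at 12.2, 17.8, 10.5 and 14.8 CPM in DMSO and at 14.3, 12.3, 10.5 and 15.4 CPM in MS275, with a log2 change of -0.05 ± 0.16 in the blocked fit. DNMT3B was at 25.1, 19.8, 20.4 and 15.3 CPM in DMSO and at 35.2, 16.4, 18.7 and 20.1 CPM in MS275, higher in 2 pairs and lower in 2, with a log2 change of 0.13 ± 0.15. TET2 was at 12.8, 15.4, 8.51 and 17.2 CPM in DMSO and at 14.1, 16.0, 5.44 and 14.8 CPM in MS275, again 2 pairs each way, with a log2 change of -0.15 ± 0.17. For these 3 the groups overlapped. TET1 was at 2.36, 6.44, 0 and 4.06 CPM in DMSO and at 4.70, 5.37, 3.53 and 5.80 CPM in MS275. Its estimate rested on the library at 0. The log2 change with the block was 1.24 ± 0.75, and 0.41 ± 0.31 without replicate 3. Without the block it was 0.61 ± 0.89, and 0.20 ± 0.38 without DMSO replicate 3, and none of these was called.

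**Figure D2:**
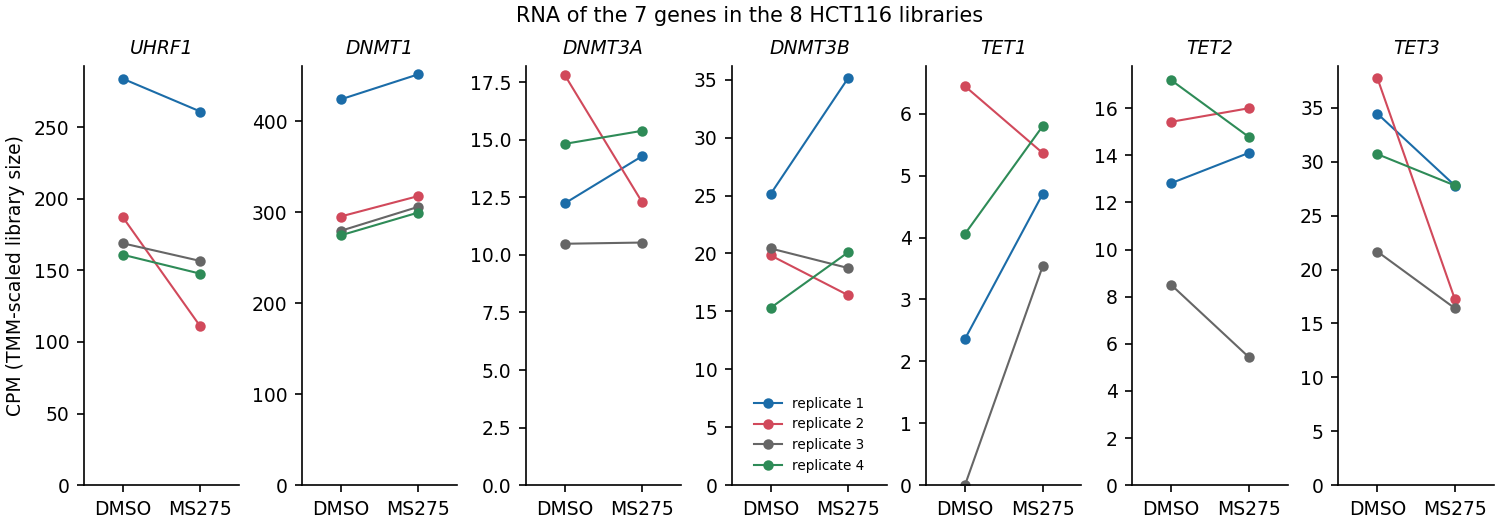
CPM of each gene in the 8 HCT116 RNA libraries, with lines joining the DMSO and MS275 libraries of the same number and axes that start at 0. All 4 lines slope down for UHRF1 and TET3 and up for DNMT1, while they run both ways for the other genes.

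The genes that work with these enzymes were followed through a list of 40, of which 37 were tested. Without the block edgeR called none and DESeq2 called 1 higher, CXXC4, beside 0.765% of all genes. With the block edgeR called 2 higher and 6 lower, beside 7.83% higher and 6.55% lower over all genes tested (median log2 change -0.08 in the list, against 0.01 over all genes), and DESeq2 called 4 higher and 8 lower, beside 9.85% and 9.61% over all genes. By role, the calls of edgeR with the block were 0 higher and 2 lower of 9 cofactors and partners, 0 and 2 of 10 genes of methyl donor supply, 0 and 1 of 8 readers, and 2 and 1 of 10 genes of removal, repair and TET cofactors. CDCA7, which targets the remodeller HELLS to DNA, was at 87.5, 79.0, 67.3 and 77.3 CPM in DMSO and at 69.5, 40.7, 45.7 and 58.5 CPM in MS275, a log2 change of -0.55 ± 0.10 (edgeR adjusted p = 0.00501, block). TDG, the glycosylase that excises the products of the TET enzymes, fell by 0.51 ± 0.13 on the log2 scale (edgeR adjusted p = 0.0181, block), from 46.8, 30.0, 56.5 and 26.7 CPM to 28.5, 16.7, 46.8 and 22.5 CPM. MBD3, a subunit of the NuRD complex that also holds HDAC1 and HDAC2, fell by 0.47 ± 0.08 (edgeR adjusted p = 0.00276, block). Both TDG and MBD3 were highest in replicate 3 of either group, and their groups overlapped although all 4 pairs went down.

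CXXC4, a zinc finger protein that binds unmethylated CpG and is known as a regulator of TET2, showed the largest change in the list. It was at 1.01, 1.37, 1.61 and 1.72 CPM in DMSO and at 4.21, 6.05, 4.06 and 6.45 CPM in MS275, and the groups did not overlap, as for 5.46% of all genes tested. The log2 change was 1.87 ± 0.36 (edgeR adjusted p = 0.00513 with the block and 0.258 without it, and DESeq2 adjusted p = 1.4e-04 without it). IDH1, which makes the 2-oxoglutarate that TET enzymes need, rose by a log2 change of 0.26 ± 0.08 (edgeR adjusted p = 0.0391, block). Genes that DNA methylation keeps silent in somatic cells were counted in a list of 12 germline genes. Of these, 11 were too low to test, with at most 41 counts in any library of either treatment, and the one tested, MAGEA3, was not called (2939 to 5154 counts in DMSO, 2221 to 4198 in MS275). MAGEA3 has near-identical relatives, so its counts are uncertain.

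The genes whose log2 CPM followed each member most closely over the 8 libraries were, among 12095 genes with a mean of at least 100 counts, NR4A1 (Pearson r = 0.97) and KIF2C (0.96) for DNMT1, DENND4B and COA1 (both 0.97) for UHRF1, SLC24A1 (0.98) and C2CD3 (0.97) for DNMT3A, and SEMA7A (0.92) and RIPK2 (0.90) for DNMT3B. For the TET genes they were MAT1A and GGACT (both 0.99) for TET1, SPIN1 and DDX59 (both 0.99) for TET2, and PRPF39 and ACAD8 (both 0.98) for TET3. The 8 libraries span 2 treatments and 4 replicate numbers, so that shared depth or culture enters these values, and the TET1 values rest on the library at 0. Each value is one of the top 2 among 12095 genes over only 8 libraries, and none was tested. Spearman correlations were lowest for DNMT3B, 0.64 with SEMA7A and 0.62 with RIPK2. Within the group, DNMT1 followed DNMT3B (r = 0.86) and UHRF1 (0.75), and DNMT3B followed UHRF1 (0.81). For all of these, replicate 1 was the highest library of both treatments (DNMT1 424 and 452 CPM, UHRF1 284 and 261, DNMT3B 25.1 and 35.2). Correlations without replicate 1 were not computed. DNMT3A followed TET2 (0.76), TET3 (0.74) and TET1 (0.61), and TET3 followed UHRF1 (0.62) and TET2 (0.60).

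In HCT116 chromatin, H3K18cr was lower after MS275 at 6 of the 17 peaks and H3K18ac at 5, and neither mark was higher at any (limma on log2 scaled reads, Benjamini-Hochberg adjusted p under 0.05). Values are reads per peak scaled by the authors to the largest library. Among all peaks tested 23.4% were called lower for H3K18cr and 16.6% for H3K18ac, and among the peaks within 1 kb of a protein-coding start 55.3% and 43.3%. Of the 17, 8 held a coding start of the gene itself in the GENCODE annotation. Of these, 5 were called for H3K18cr and 4 for H3K18ac, near those shares for starts in general. The median log2 change of all peaks was -0.20 in H3K18cr and -0.19 in H3K18ac. These medians became 0.03 and 0.05 when libraries were scaled by TMM over peaks, so the scaled reads are shares of a library and not absolute amounts of a mark. By western blot the paper found more histone crotonylation after MS275. By ChIP-qPCR it found more H3K18cr over promoters of a few genes, none of them in this group. It proposes that the lower share of reads over starts could come from gains elsewhere in the genome.

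The UHRF1 peak at chr19:4908151-4913250, which spans 3 RefSeq starts and 999 bp of exon, changed most for H3K18cr. It held 451, 467 and 305 scaled H3K18cr reads in DMSO and 226, 217 and 231 in MS275, and the groups did not overlap, as for 30.3% of peaks with every MS275 library below every DMSO library. The log2 change was -0.83 ± 0.17 (SE, limma adjusted p = 4.3e-04). H3K18ac there was 289, 335 and 572 in DMSO against 282, 205 and 185 in MS275, a log2 change of -0.79 ± 0.25 (limma adjusted p = 0.0160). These groups did not overlap either, as for 23.4% of peaks in that mark, but DMSO replicate 3 was well above the other libraries. Without replicate 3 the H3K18ac change was -0.37 and not called (limma adjusted p = 0.594), and without replicate 1 it was -1.17. The second UHRF1 peak, in an intron at chr19:4913401-4916400, was called for neither mark (H3K18cr -0.20 ± 0.18, H3K18ac -0.29 ± 0.25).

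DNMT1 had 2 peaks with a start. That at chr19:10193551-10196700, which holds its RefSeq start, went from 205, 209 and 167 scaled H3K18cr reads in DMSO to 122, 116 and 128 in MS275 (log2 change -0.66 ± 0.17, limma adjusted p = 0.00376), without overlap. Its H3K18ac reads were 169, 232 and 288 in DMSO and 175, 117 and 113 in MS275, and here MS275 replicate 1 lay within the DMSO range (log2 change -0.76 ± 0.25, limma adjusted p = 0.0219). The other, chr19:10228501-10232850, lies at the upstream end of the interval, and also holds the starts of S1PR2, a sphingosine-1-phosphate receptor, and MIR4322. It was called for neither mark (H3K18cr -0.41 ± 0.17, limma adjusted p = 0.0834, and H3K18ac -0.61 ± 0.25, limma adjusted p = 0.0840). Other fits did call it. H3K18cr passed with the replicate block (limma adjusted p = 0.0482, beside 26.6% of all peaks called lower) and without replicate 3 (-0.47, limma adjusted p = 9.9e-04, beside 37.9%). H3K18ac passed with TMM over peaks (-0.36, limma adjusted p = 0.0385, beside 16.9%) and without replicate 1 (-0.92, limma adjusted p = 0.00230, beside 29.9%). S1PR2 shares 83 bp of exon with DNMT1 on the same strand, beside a mean count of 95.2.

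TET3 and TET2 also had fewer scaled reads of both marks at their starts. The TET3 peak, chr2:73979251-73986750, had 644, 607 and 506 scaled H3K18cr reads in DMSO and 353, 384 and 368 in MS275 (log2 change -0.66 ± 0.15, limma adjusted p = 0.00147). Its H3K18ac reads went from 447, 671 and 796 to 412, 320 and 308 (-0.85 ± 0.25, limma adjusted p = 0.00723). Neither mark overlapped between groups, as for 30.3% of all peaks in H3K18cr and 23.4% in H3K18ac. The peak also holds the start of the antisense gene DGUOK-AS1, so the reads cannot be assigned to 1 gene. The TET2 peak, chr4:105145801-105148350, went from 183, 203 and 189 scaled H3K18cr reads to 116, 119 and 153 (-0.58 ± 0.17, limma adjusted p = 0.0117), and from 198, 228 and 269 H3K18ac reads to 132, 120 and 116 (-0.90 ± 0.25, limma adjusted p = 0.00507). The groups were separate for both marks, again beside 30.3% and 23.4% of all peaks. With the replicate block neither H3K18ac change was called (limma adjusted p = 0.168 for TET3 and 0.121 for TET2), beside 2.24% of all peaks called lower. With TMM over peaks the TET2 H3K18cr change was -0.33 and not called (limma adjusted p = 0.127).

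The DNMT3B start, chr20:32761051-32765700, was called for H3K18cr and not for H3K18ac. It had 334, 325 and 220 scaled H3K18cr reads in DMSO and 242, 166 and 170 in MS275, with overlap (log2 change -0.60 ± 0.18, limma adjusted p = 0.0132), while the H3K18ac change was -0.48 ± 0.25 (limma adjusted p = 0.211). Both calls depended on the libraries used. H3K18ac was -0.87 and called without replicate 1 (limma adjusted p = 0.00463) but -0.07 without replicate 3, and H3K18cr was not called without replicate 1 (-0.67, limma adjusted p = 0.0712), without replicate 2 (-0.42, limma adjusted p = 0.411) or with TMM over peaks (-0.36, limma adjusted p = 0.132). The difference between the marks there was -0.12 ± 0.32 and not called. The DNMT3A start, chr2:25340101-25343100, was called for neither mark. Its H3K18cr reads were 292, 251 and 124 in DMSO and 216, 197 and 136 in MS275, so replicate 3 was low in both groups, and its H3K18ac reads were 138, 122 and 155 in DMSO against 195, 127 and 145 in MS275. The log2 changes were -0.22 ± 0.22 and 0.15 ± 0.25. Without replicate 3 the H3K18cr change was -0.39 and called (limma adjusted p = 0.00328). With TMM over peaks the H3K18ac change was 0.39 and called higher (limma adjusted p = 0.0424), beside 4.63% of all peaks.

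TET1 has separate start regions. At the upstream start, chr10:68559301-68561700, H3K18cr was 147, 147 and 122 scaled reads in DMSO and 102, 105 and 149 in MS275 (log2 change -0.24 ± 0.18, limma adjusted p = 0.408), and the H3K18ac change was -0.49 ± 0.25 (limma adjusted p = 0.191). Leaving out a replicate changed this too, since H3K18cr was -0.10 without replicate 1 and -0.51 and called without replicate 3 (limma adjusted p = 0.00379), and H3K18ac was -0.74 and called without replicate 1 (limma adjusted p = 0.0198). At chr10:68598901-68601600, 38.2 kb into the interval and over 2 RefSeq starts, H3K18cr went from 145, 157 and 113 to 83.2, 85.0 and 108 scaled reads (-0.58 ± 0.19, limma adjusted p = 0.0191). H3K18ac there went from 122, 149 and 164 to 98.7, 79.2 and 73.4 (-0.79 ± 0.25, limma adjusted p = 0.0144), and for both marks the groups were separate, beside the same shares of 30.3% and 23.4%. Whether these TET1 regions differed in their response was not tested.

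The 9 peaks without a GENCODE coding start of the gene had log2 changes between -0.58 and 0.42 in H3K18cr, and between -0.79 and 0.56 in H3K18ac. The inner TET1 peak just described was the one called, and it holds 2 RefSeq starts but no GENCODE coding start. The highest value in both marks was that of a TET2 peak 38.6 kb into the gene (chr4:105184501-105185100), which held only 10.3 to 24.1 scaled reads in any ChIP library. The 3 inner DNMT3A peaks, 26.8 to 46.6 kb from the start, lay between -0.32 and 0.18. At the 8 coding-start peaks in DMSO, the H3K18cr reads per kb ran from 56.4 at the upstream DNMT1 peak to 79.9 at UHRF1, above 52.8% and 87.0% of all start peaks, so that all 8 lay above the median. The H3K18ac reads per kb lay above 30.2% (DNMT3B) to 85.3% (TET2) of start peaks. For H3K18cr the ratio to input on the log2 scale ran from 1.40 at TET1 to 2.22 at DNMT3A.

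**Figure D3:**
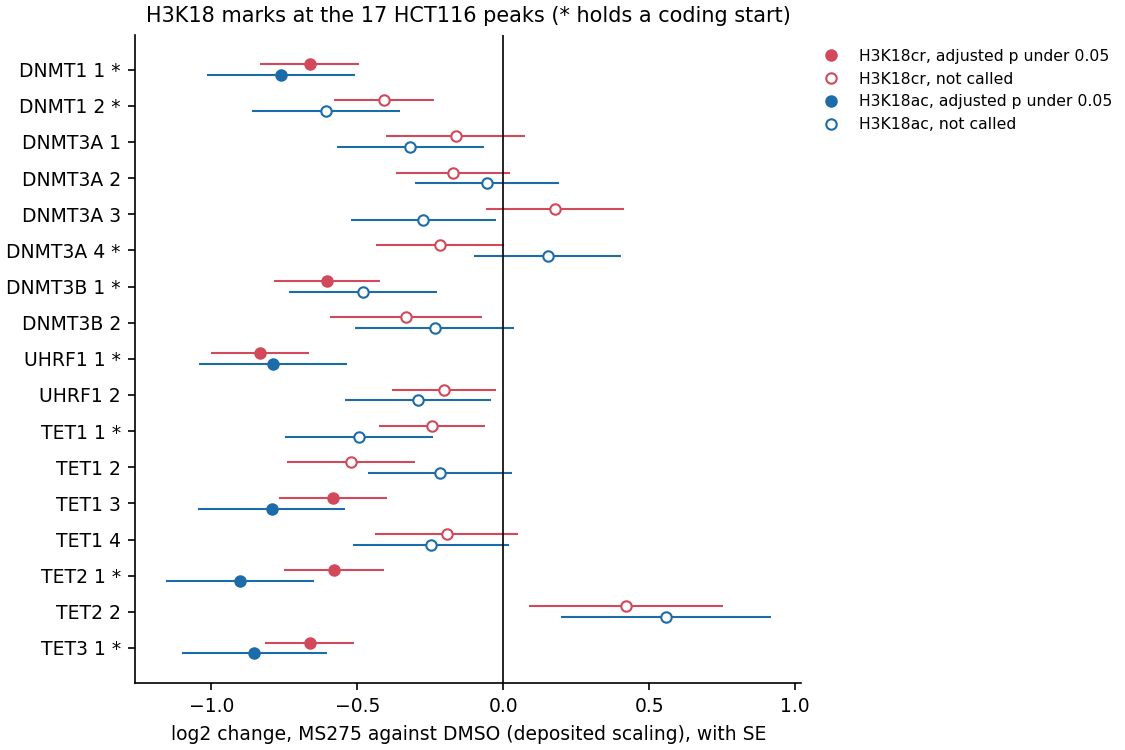
Log2 change of scaled reads, MS275 against DMSO, with SE, at the 17 HCT116 peaks, named by gene and order along the chromosome. Filled points passed the limma test, and asterisks mark a coding start of the gene. Called peaks lie between -0.90 and -0.58 in either mark, while the DNMT3A peaks lie between -0.32 and 0.18.

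The marks were also compared with each other. At none of the 17 peaks was the MS275 effect on H3K18cr called different from that on H3K18ac (limma interaction, 0 called, 0 at an unadjusted p under 0.05), with differences of -0.37 to 0.45 and SEs of 0.29 to 0.48. Over all 40237 peaks the interaction also called 0 (0%), with 736 at an unadjusted p under 0.05. With SEs of this size, small differences between the marks were not detectable. The counts per mark changed when a replicate number was left out, which leaves 2 libraries per group. Without replicate 1, 2 or 3 of both groups, H3K18cr was called at 1, 0 or 10 of the 17 peaks and H3K18ac at 8, 0 or 0, while the whole table gave 2906, 2072 or 15131 calls for H3K18cr and 11900, 1 or 869 for H3K18ac. Every called peak kept its direction in these fits. Of the 6 peaks called for H3K18cr, 1 (UHRF1), 0 or 6 passed without replicate 1, 2 or 3, and their log2 changes lay between -0.75 and -0.47, between -0.70 and -0.42 and between -1.05 and -0.72. Of the 5 called for H3K18ac, 5, 0 or 0 passed, with log2 changes between -1.22 and -1.04, between -0.90 and -0.65 and between -0.75 and -0.37. With TMM over peaks, H3K18cr was lower at 3 starts (DNMT1, UHRF1 and TET3), beside 11.4% of all peaks, and H3K18ac was lower at 6 peaks, beside 16.9% of all peaks, and higher at the DNMT3A start (log2 change 0.39), beside 4.63% of all peaks.

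**Figure D4:**
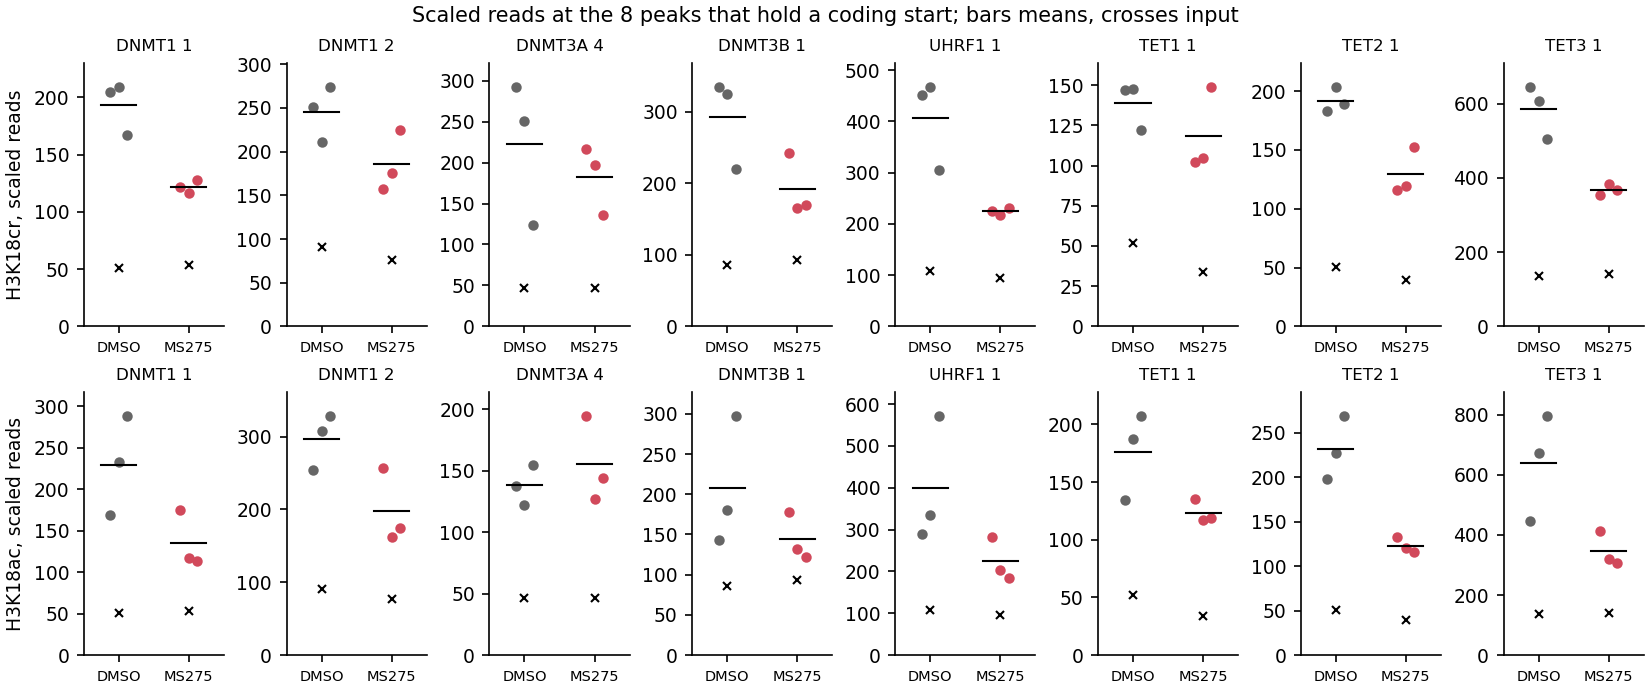
Scaled reads at the 8 peaks that hold a coding start, by mark and treatment, with axes that start at 0. Points are the 3 libraries, bars their means and crosses the input library. At UHRF1, TET2 and TET3 the groups are separate in both marks. They overlap in both at the upstream DNMT1 peak and at DNMT3A, DNMT3B and TET1, and in H3K18ac alone at the other DNMT1 peak.

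Mouse colon was examined for peaks only, since it has no treatment in these data. H3K18cr peaks stood at 5 of the 7 genes, with 10 at Tet3, 3 at Tet2, 2 at Dnmt3a and 1 each at Dnmt1 and Dnmt3b, while Uhrf1 and Tet1 had none. The intervals used for Tet1 and Tet3 stop short of the upstream ends in GENCODE (chr10:62899118 against 62908996, and chr6:83441678 against 83459084). Those ends lie outside the window, and peaks there were not sought. All 7 genes had H3K4me3 peaks, 7 at Dnmt3a, 4 each at Tet1 and Tet3, 3 each at Dnmt1 and Uhrf1, 2 at Dnmt3b and 1 at Tet2. Of the 17 H3K18cr peaks 8 (47.1%) overlapped an H3K4me3 peak by at least 1 bp, and of the 24 H3K4me3 peaks 8 (33.3%) overlapped an H3K18cr peak. Over all peaks these shares were 41.2% and 45.7%. Ratios below are log2 of scaled reads over input, with 1 read added, and have no test.

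The Dnmt3a start was the strongest site of both marks. Its H3K18cr peak, chr12:3805951-3809100 on GRCm38, held 301 and 587 scaled reads against 72 and 111 in input, log2 ratios of 2.05 and 2.39, above 98.5% of all H3K18cr peaks. The H3K4me3 peak at the same place (chr12:3805951-3809250) had ratios of 3.14, 3.89 and 4.46, above 99.6% of all peaks. The Tet2 start (chr3:133542451-133545600) had H3K18cr ratios of 1.96 and 1.99, and its H3K4me3 ratios were 2.32, 2.65 and 3.32. A second Dnmt3a site, 84.7 kb into the gene at chr12:3890701-3893250 and over 2 coding starts, had a mean H3K18cr ratio of 1.54. The medians over all peaks were 1.17 and 1.48 for the 2 H3K18cr libraries and 1.35 to 2.01 for the 3 H3K4me3 libraries.

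The maintenance genes had a low H3K18cr ratio or no peak at their starts. The Dnmt1 peak, chr9:20951851-20952900, held 50.9 and 117 scaled reads against 32 and 50.4 in input, ratios of 0.65 and 1.20 that lay above only 6.77% of peaks, although the H3K4me3 peak there had ratios of 2.26, 2.95 and 3.47. At Uhrf1 no H3K18cr peak was listed, while H3K4me3 marked its start, chr17:56302351-56305050, with 239, 329 and 465 scaled reads against 76 in input (ratios of 1.64, 2.10 and 2.60). A further H3K4me3 peak within the window of Uhrf1 holds a start of its neighbour Kdm4b, and it overlaps an H3K18cr peak that begins 2.42 kb beyond Uhrf1, outside the window. At Tet1 a H3K4me3 peak over 2 coding starts (chr10:62885851-62887800) had ratios of 1.45, 2.14 and 2.68. A gene without a listed H3K18cr peak was not quantified in that table, so no value can be given for it.

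Tet3 stood out by number rather than height. Its 10 H3K18cr peaks ran from 1.82 kb upstream of the interval used to 30.3 kb inside it. The peak upstream of that interval still lies within the gene as annotated in GENCODE. The mean ratios of the 10 peaks lay between 0.84 and 1.43. At the start of the interval (chr6:83440801-83443200) the mean ratio was 1.28, and H3K4me3 there had ratios of 1.44, 2.17 and 2.49. Several of these peaks are direct neighbours and may be parts of 1 broad region. Dnmt3b had 1 H3K18cr peak at its start (chr2:153649051-153650700), with ratios of 0.97 and 1.56, and H3K4me3 ratios of 2.42, 3.29 and 3.87, although its RNA was among the lowest of the group. H3K18cr did not follow the RNA order of the 7 genes: Uhrf1, the highest, had no peak, and Dnmt3a, at rank 4, had the highest ratio. This is a description of 7 genes and was not tested.

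**Figure D5:**
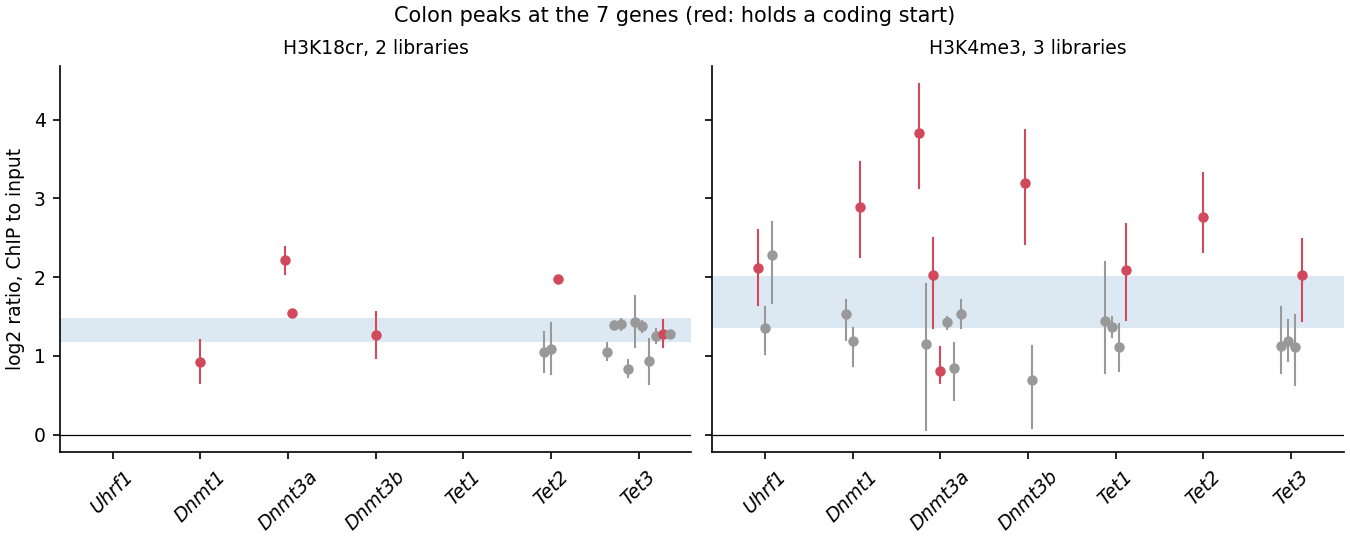
Log2 ratio of ChIP to input at the colon peaks of the 7 genes, H3K18cr in 2 libraries and H3K4me3 in 3. Points are means and lines the range over libraries, red marks peaks over a coding start, and the band spans the library medians of all peaks. Dnmt3a and Tet2 starts lie above the band for H3K18cr, and Uhrf1 and Tet1 have no H3K18cr peak in the window searched.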

How the data were processed

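Sequencing of RNA and of chromatin immunoprecipitates was analysed from the processed tables, and samples were grouped by their labels. Per the labels, reads were trimmed with Trim Galore 0.4.2 (the methods name an earlier version as well for ChIP), and ChIP reads were mapped with Bowtie2 (2.2.5 per the labels) to GRCh38 or GRCm38 and cleared of duplicates. The labels list TopHat2 2.0.12, whereas the methods name HiSat2 for mouse RNA, and neither is stated for HCT116 RNA. Deposited RNA values are raw counts per gene from SeqMonk, and no source states whether counting used strand. In the low counts of 1 to 20, 50.4% to 80.7% were odd depending on the library, so a unit may not be 1 read. The deposited colon ChIP values are signal, namely reads over MACS peaks multiplied by 1 factor per library. The deposited HCT116 ChIP values are log2 of such scaled reads. All ChIP values were whole reads times the factor within 0.02 read, except that a read count of 0 is held as 0.9 read in the HCT116 table. The methods name 2 H3K18cr replicates for HCT116, while the labels give 3, which were used.

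RNA was tested with edgeR 4.0.16 (TMM, quasi-likelihood), and ChIP with limma 3.58.1 on the deposited log2 values, for peaks with 10 reads in 3 libraries. DESeq2 1.42.0 was the alternative. Adjusted p-values cover the whole table. Same-numbered RNA libraries were taken as pairs (correlations of their deviations 0.15 to 0.46), so blocked values are given. For replicate 2 (0.15), DMSO 2 with MS275 4 (0.24) and DMSO 4 with MS275 2 (0.22) were higher. H3K18cr (0.08 to 0.24) and H3K18ac (-0.21 to 0.05) were not paired. No source names the cultures behind each number, and p-values measure the spread between these samples. Levels used merged exon length from GENCODE. Colon peaks were not tested. Genes named are the 7, the list genes called without the block, up to 3 rises and 3 falls called with it (only 2 rises were), called germline genes (there were none), the 2 genes most like each member, and CDKN1A. MAGEA3, the marker genes and the neighbours whose starts lie in a peak were named after their values were seen. The members and lists were chosen with earlier results of these data known. Scripts were tested on simulated data.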

Additional observations from a re-analysis of the deposited data

Results flagged for a closer look

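Of the 14 groups of 4 RNA libraries that the 7 genes give, 3 held a library far from the rest by Dixon's gap criterion, which chance meets in about 1 group of 20. DNMT1 was highest in replicate 1 of both treatments, at 8.73 log2 CPM in DMSO against 8.21 for the next library, and at 8.82 log2 CPM in MS275 against 8.31. TET2 was lowest in MS275 replicate 3, at 2.46 log2 CPM against 3.82 for the next library.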

How the results depend on the processing

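None of the 7 genes was called in RNA in any unblocked fit. With the replicate block, DESeq2 called 2 and edgeR with DESeq2's size factors, an alternative chosen after seeing the data, called 1, while blocked edgeR without a replicate called 0 to 2. Without 1 library or replicate the log2 change ranged from -0.030 to 0.29 for DNMT1 and from -0.11 to 0.29 for DNMT3B (both turned without MS275 replicate 1), from -0.25 to 0.15 for TET2 (0.042 without DMSO replicate 4 and 0.15 without MS275 replicate 3), and from -0.17 to 0.092 for DNMT3A (0.074 without DMSO replicate 2, 0.013 without MS275 replicate 3, and 0.092, its highest, with the replicate block and without replicate 2). It ranged from -0.51 (without MS275 replicate 1) to -0.021 (without DMSO replicate 1) for UHRF1, from -0.60 to -0.29 for TET3, and from 0.20 (without DMSO replicate 3) through 1.19 (without DMSO replicate 2) to 1.90 (with the replicate block and without replicate 2) for TET1. Of the 17 peaks, H3K18cr was called at 3 with TMM over peaks, at 8 with the replicate block and at 0 to 10 without a replicate, and H3K18ac at 0 with the replicate block and at 0 to 8 without a replicate. With TMM over peaks the H3K18cr change turned at the first, second and start DNMT3A peaks (0.073, 0.065 and 0.021), the last TET1 peak (0.041) and the second UHRF1 peak (0.035), and the H3K18ac change at the second DNMT3A (0.18), second DNMT3B (0.014) and second TET1 (0.029) peaks. Without a replicate, H3K18ac ranged from -0.17 to 0.072 at the second and from -0.019 to 0.28 at the start DNMT3A peak, from -0.52 to 0.24 at the second DNMT3B peak, and from -0.50 to 0.17 and -0.52 to 0.089 at the second and last TET1 peaks. None of these turned values was called, and the cause was not tested. The ChIP numbers share no stated culture; the block moved the calls over all peaks to 10667 from 9321 (H3K18cr) and to 895 from 6652 (H3K18ac). Levels kept their order under every alternative, and the colon peak count was 35 to 43 against 41. The 3 libraries per ChIP group and the low TET1 counts limit what could be called.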
